A study of Mus musculus with 48 samples.

Results

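The genes described here carry or receive the insulin and insulin-like growth factor (IGF) signal in the kidney. They were taken by symbol from the rows of both deposited expression tables and comprise 10 of the 49585 genes listed: 4 IGF binding proteins (Igfbp1, Igfbp3, Igfbp4 and Igfbp5), both receptors (Insr and Igf1r), 2 receptor adaptors (Irs1 and Irs2) and 2 FOXO transcription factors (Foxo1 and Foxo3). The libraries came from kidneys of mice labelled wild type that were given D-alanine (D-Ala, the mirror-image form of L-alanine) or vehicle and were collected at circadian times (CT) 0, 4, 8, 12, 16 and 20 h. Each of the 12 combinations of treatment and time had 4 libraries, 24 per treatment and 48 in all, from different mice according to the series text. The labels state no dose, route, sex, age or strain. Each deposited table held 24 libraries, 2 of every combination, and the tables were taken as the 2 runs of the experiment that the series text mentions, which is an inference.

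Insulin and IGF1 bind the tyrosine kinase receptors encoded by Insr and Igf1r, which phosphorylate the adaptor proteins Irs1 and Irs2 and so turn on PI3 kinase and AKT. AKT phosphorylates FOXO proteins and keeps them out of the nucleus, which lowers transcription of FOXO targets such as Igfbp1 in liver. IGF binding proteins hold IGFs in plasma and tissue fluid and set how much reaches the receptors. In kidney, insulin restrains glucose production and promotes sodium retention in the tubule.

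Promoter sequence is shown for the 3 genes whose RNA followed a daily rhythm in both treatments and for the adaptor genes, whose promoters hold both of the motifs marked. The 250 bases before the first annotated base of the transcript are given 5′ to 3′ on the gene's own strand, from RefSeq on GRCm38.p6, where 9 of the 10 genes were matched; Insr is named only. Capitals mark matches to CAAAACA, the core of the insulin response sequence through which insulin and FOXO1 act on Igfbp1, or to its reverse complement TGTTTTG, and to CACGTG, the E-box bound by CLOCK and BMAL1. Igfbp1 lies on the plus strand (chr11:7197537-7197786), Igfbp3 on the minus strand (chr11:7213924-7214173), Igfbp4 on the plus strand (chr11:99040994-99041243), Irs1 on the minus strand (chr1:82291440-82291689) and Irs2 on the minus strand (chr8:11008930-11009179).
Igfbp1: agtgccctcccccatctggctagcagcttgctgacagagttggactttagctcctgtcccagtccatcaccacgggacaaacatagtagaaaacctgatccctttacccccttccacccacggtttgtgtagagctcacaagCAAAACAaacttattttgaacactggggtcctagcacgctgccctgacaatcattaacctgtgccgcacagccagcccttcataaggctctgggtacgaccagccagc
Igfbp3: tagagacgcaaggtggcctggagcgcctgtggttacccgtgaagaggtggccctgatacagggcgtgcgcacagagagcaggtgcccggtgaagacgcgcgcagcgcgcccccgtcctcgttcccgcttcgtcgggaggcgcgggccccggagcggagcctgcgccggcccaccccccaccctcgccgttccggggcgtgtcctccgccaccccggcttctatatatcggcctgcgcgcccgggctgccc
Igfbp4: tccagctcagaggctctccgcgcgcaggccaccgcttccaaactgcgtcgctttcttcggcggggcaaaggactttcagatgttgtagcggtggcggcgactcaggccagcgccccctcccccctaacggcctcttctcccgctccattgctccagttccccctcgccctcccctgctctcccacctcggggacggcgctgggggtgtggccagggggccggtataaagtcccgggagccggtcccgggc
Irs1: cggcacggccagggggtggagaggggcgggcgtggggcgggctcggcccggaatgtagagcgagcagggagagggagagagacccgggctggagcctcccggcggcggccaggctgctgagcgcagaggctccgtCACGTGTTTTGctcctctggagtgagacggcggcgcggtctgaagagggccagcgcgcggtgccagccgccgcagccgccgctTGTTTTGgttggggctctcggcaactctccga
Irs2: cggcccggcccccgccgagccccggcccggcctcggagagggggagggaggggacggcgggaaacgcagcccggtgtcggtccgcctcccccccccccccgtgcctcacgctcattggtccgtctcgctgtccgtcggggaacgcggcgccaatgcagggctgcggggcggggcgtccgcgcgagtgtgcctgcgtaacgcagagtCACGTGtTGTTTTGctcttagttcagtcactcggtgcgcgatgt

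Counting back from the transcript start, the Igfbp1 promoter held CAAAACA on the gene's strand at -108 to -102. The Irs1 promoter held CACGTG at -115 to -110, and CAAAACA on the opposite strand at -111 to -105, where it overlapped the E-box, and at -32 to -26. In the Irs2 promoter, CACGTG stood at -44 to -39 and CAAAACA on the opposite strand at -37 to -31. Both strands were searched in all 32851 RefSeq promoters of this length; CAAAACA was found in 5.56% of them and CACGTG in 6.02%. GTAAACA, a FOXO site, was found in 3.17% and TGACGT, the core of the cAMP response element, in 6.47%, and neither was found in the 9 promoters here. The windows of Igfbp3, Igfbp4, Igfbp5, Igf1r, Foxo1 and Foxo3 held none of the 4 motifs. These matches are letters in a window and were not tested as binding sites.

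RNA levels are deposited as FPKM, fragments counted per unit of gene length and of sequencing depth, so that levels of different genes can be compared. Each library held between 7646020 and 14438170 fragments (median 11603245), as recovered from the steps of low values. All 10 genes passed the filter of at least 1 FPKM in at least 4 libraries, which left 14922 genes for testing. The core clock genes Arntl, Per2, Nr1d1 and Dbp were rhythmic in both treatments, with Dbp peaking at CT9.68 in D-alanine and CT9.71 in vehicle. Markers of the proximal tubule were abundant in all libraries, with a summed level of 2241 to 5434 FPKM in D-alanine and 2482 to 4583 FPKM in vehicle, and the 5 liver markers summed to 43.07 to 153.8 FPKM in D-alanine and 53.8 to 144.9 FPKM in vehicle, of which Ttr had 21.5 to 124.9 FPKM and Alb 0.874 to 6.45 FPKM over all libraries. The 6 inner medulla markers varied far more, with sums of 179.5 to 3002 FPKM in D-alanine and 252 to 907 FPKM in vehicle, the highest in D-alanine CT0 replicate 2. Mitochondrially encoded genes took 37.4% ± 4.33 of FPKM in D-alanine and 41.4% ± 3.38 in vehicle in the first table, and 17.0% ± 1.36 in D-alanine and 19.9% ± 1.95 in vehicle in the second (SD, n = 12 each). A larger share lowers the FPKM of every nuclear gene in that library.

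The 10 genes differed widely in level. Mean levels over the 48 libraries were 146 FPKM for Igfbp4, 100.3 for Igfbp5 and 51.7 for Igfbp3, followed by Igf1r at 8.54, Insr at 5.33, Foxo3 at 5.29, Foxo1 at 3.52, Igfbp1 at 3.31, Irs2 at 3.03 and Irs1 at 1.36 FPKM. The binding proteins that made up the bulk of this RNA are encoded on chromosomes 11 and 1 of GRCm38: Igfbp4 at chr11:99041244-99054392 (plus strand), Igfbp3 at chr11:7206086-7213923 (minus strand) and Igfbp5 at chr1:72857932-72874884 (minus strand). Igfbp1, the lowest of the 4, lies beside Igfbp3 at chr11:7197782-7202546 (plus strand). Its levels corresponded to about 3 to 228 fragments per library, so counting error is large at its low end.

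Among these 10 genes, daily rhythms were called mainly in the binding proteins. With a 24 h cosine fitted to log2(FPKM + 1) in limma, Igfbp1, Igfbp3 and Igfbp4 were rhythmic in D-alanine and the same 3 in vehicle. Over all genes tested, 8.3% were called rhythmic in D-alanine and 9.77% in vehicle, at a Benjamini-Hochberg adjusted p under 0.05. When both treatments were averaged, Insr joined them, which made 4 of 10 genes against 25.9% of all genes tested. Igfbp5, Igf1r, Irs1, Irs2, Foxo1 and Foxo3 did not pass in any of these fits. Outside the 10, Igfbp2, Igfbp6 and Igfbp7 were not called over both treatments either (limma, adjusted p = 0.759, 0.665 and 0.338). The rhythm was therefore not a trait of the whole family of binding proteins.

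**Figure D1:**
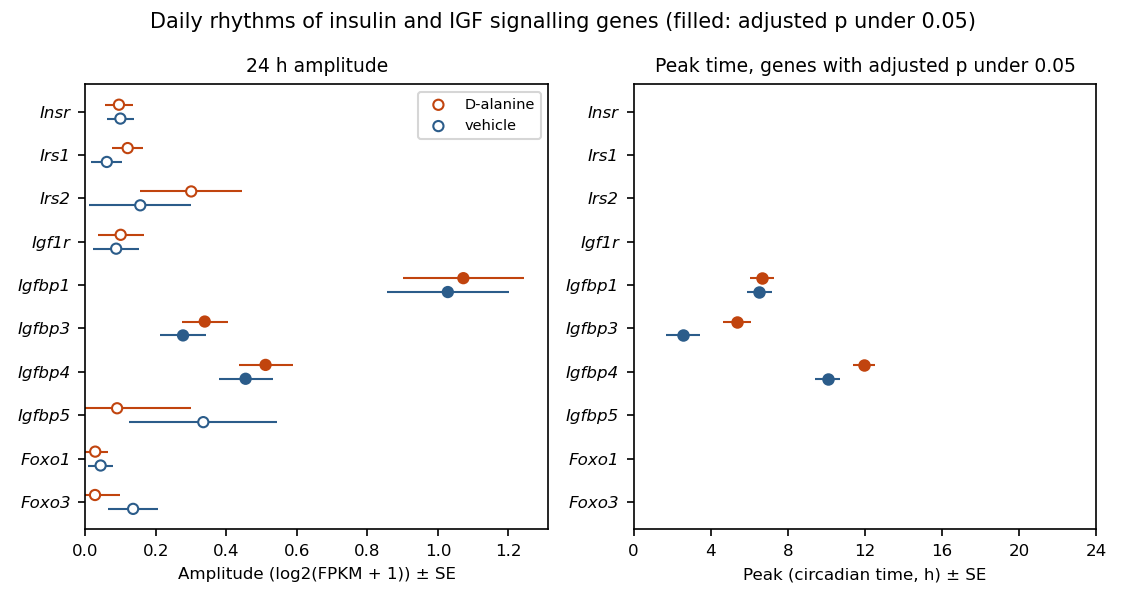
Left, amplitude of the 24 h cosine in log2(FPKM + 1) with its standard error for the 10 genes in D-alanine (orange, upper point of each pair) and vehicle (blue, lower point); filled points had an adjusted p under 0.05. Right, fitted peak time with its standard error for Igfbp1, Igfbp3 and Igfbp4. Amplitude was highest for Igfbp1, at 1.07 in D-alanine and 1.03 in vehicle.

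Igfbp1, which in liver is the binding protein most sharply lowered by insulin, had the deepest rhythm. At CT0 it stood at 0.374, 0.790, 0.840 and 0.819 FPKM in D-alanine and at 0.400, 0.192, 4.51 and 0.985 FPKM in vehicle. At CT4 it stood at 3.94, 2.68, 12.9 and 14.2 FPKM in D-alanine and at 9.36, 4.19, 5.52 and 11.95 FPKM in vehicle. CT8 values were 2.05, 4.95, 7.74 and 6.69 FPKM in D-alanine, against 7.66, 6.08, 4.94 and 5.19 FPKM in vehicle. In both treatments the libraries at CT4 lay above those at CT0, except for 1 high vehicle library at CT0. By CT12 the values were 1.19, 1.94, 2.89 and 3.05 FPKM in D-alanine, against 1.18, 1.64, 5.33 and 4.20 FPKM in vehicle. The CT16 libraries held 1.38, 0.173, 0.450 and 1.30 FPKM in D-alanine, against 0.524, 0.488, 0.853 and 1.46 FPKM in vehicle. At CT20 the values were 0.295, 1.04, 1.62 and 1.89 FPKM in D-alanine, against 1.25, 1.29, 1.69 and 3.01 FPKM in vehicle. No CT16 library of either treatment reached the lowest CT4 library of its own treatment, and at each of the 6 times the D-alanine and vehicle values overlapped.

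The highest mean of Igfbp1 was 11.9-fold its lowest in D-alanine (8.43 ± 5.96 FPKM at CT4 and 0.706 ± 0.222 at CT0) and 9.34-fold in vehicle (7.76 ± 3.56 FPKM at CT4 and 0.831 ± 0.449 at CT16; SD, n = 4). The fitted amplitude was 1.07 ± 0.17 in D-alanine (limma, adjusted p = 0.00011) and 1.03 ± 0.17 in vehicle (adjusted p = 0.000201) on the log2(FPKM + 1) scale, with the SE given, and the peaks fell at CT6.67 in D-alanine and CT6.51 in vehicle. By size of amplitude Igfbp1 ranked 6 among the 14922 genes in D-alanine and 13 in vehicle. Within tables the amplitude was 0.83 in the first table and 1.33 in the second for D-alanine, and 1.19 in the first and 0.87 in the second for vehicle. With 1 table alone the adjusted p was 0.13 for D-alanine in the first table and 0.0966 for vehicle in the second.

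**Figure D2:**
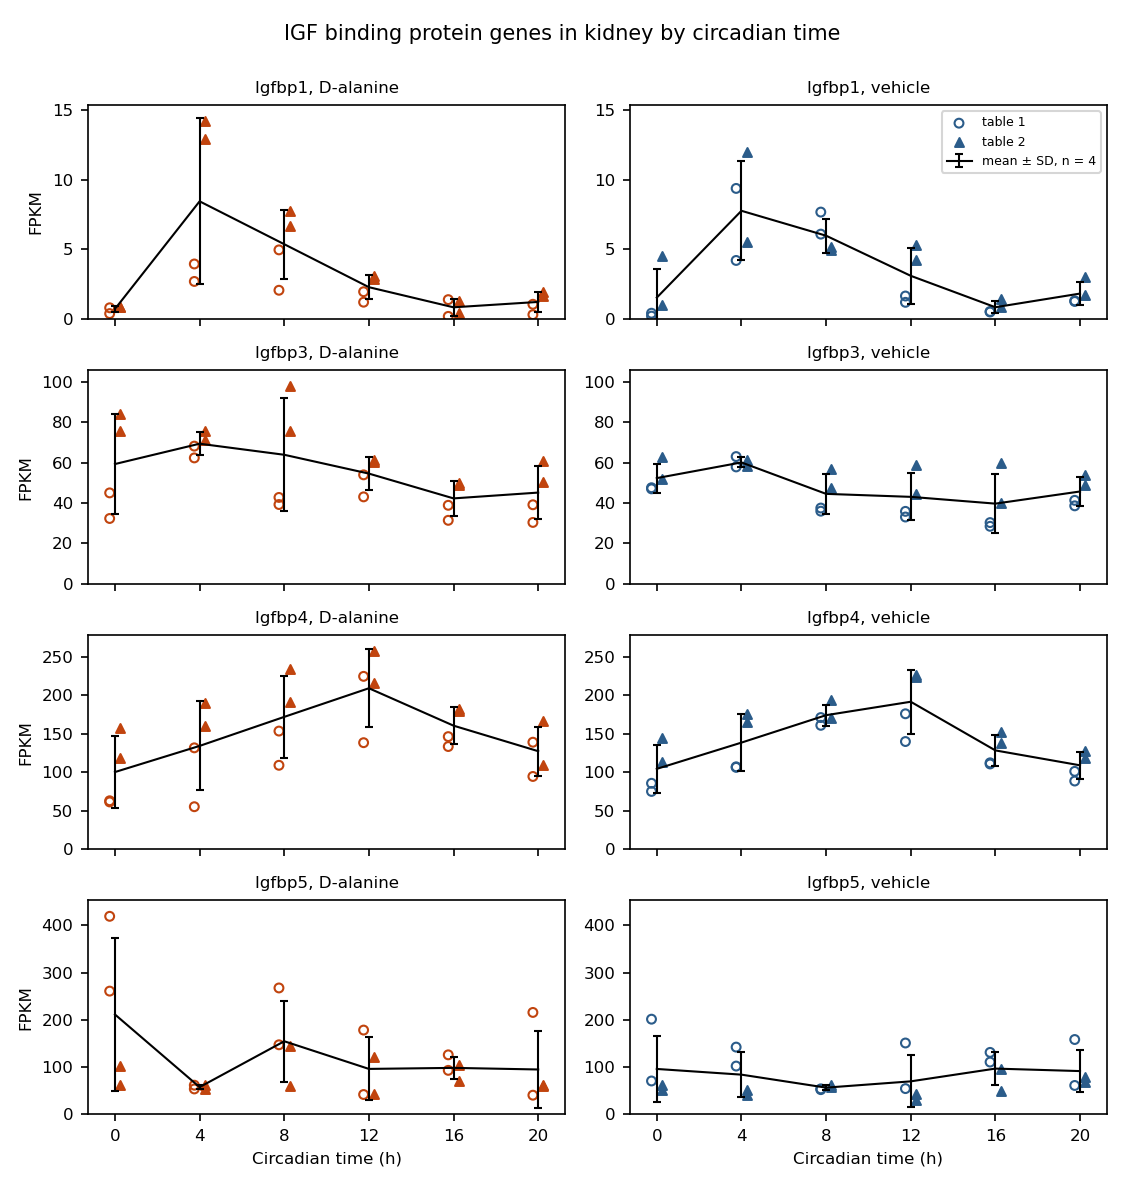
FPKM of Igfbp1, Igfbp3, Igfbp4 and Igfbp5 against circadian time in hours, in D-alanine (left, orange) and vehicle (right, blue) kidneys. Circles are libraries of the first table and triangles of the second; black lines join the means of 4 libraries with their SD. Igfbp1 was highest at CT4 and Igfbp4 at CT12 in both treatments, while Igfbp5 spread up to 419 FPKM with no shared time course.

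Igfbp4, a binding protein that mostly inhibits IGF action and is released from IGFs by proteolysis, reached its highest mean at CT12 in both treatments. At CT0 the libraries held 62.7, 61.2, 119 and 158 FPKM in D-alanine and 74.9, 85.5, 144 and 113 FPKM in vehicle. At CT12 they held 225, 138, 257 and 216 FPKM in D-alanine and 139.8, 176, 224 and 227 FPKM in vehicle. Within each table the CT12 libraries lay above the CT0 libraries of the same treatment. Between those times the means were 134 ± 57.9 FPKM at CT4 and 172 ± 53.3 at CT8 in D-alanine, against 138 ± 37.0 at CT4 and 174 ± 13.8 at CT8 in vehicle. They were lower again at CT20, at 127 ± 31.8 FPKM in D-alanine and 109 ± 17.6 FPKM in vehicle (SD, n = 4). The amplitude was 0.51 ± 0.08 in D-alanine (limma, adjusted p = 3.21e-05, peak CT11.9) and 0.45 ± 0.08 in vehicle (adjusted p = 0.000217, peak CT10.1). In vehicle it was 0.51 in the first table alone (adjusted p = 0.0621) and 0.40 in the second (adjusted p = 0.0079). Levels were higher in the second table, at 180.2 ± 42.9 FPKM in D-alanine and 162 ± 37.9 in vehicle, than in the first, at 121 ± 48.1 in D-alanine and 119 ± 34.2 in vehicle (SD, n = 12).

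Igfbp3, the main carrier of IGF in plasma, had a smaller rhythm with an earlier peak. At CT4 it stood at 68.2, 62.4, 71.4 and 75.6 FPKM in D-alanine and at 63.0, 57.9, 58.2 and 61.3 FPKM in vehicle. At CT16 it stood at 31.5, 38.9, 49.98 and 48.9 FPKM in D-alanine and at 30.3, 28.5, 39.99 and 60.1 FPKM in vehicle. The CT4 and CT16 libraries did not overlap in D-alanine, and in vehicle 1 library at CT16 reached the CT4 range. The amplitude was 0.34 ± 0.06 in D-alanine (limma, adjusted p = 0.00135) and 0.28 ± 0.06 in vehicle (adjusted p = 0.0101). The fitted peaks were CT5.34 in D-alanine and CT2.57 in vehicle. In vehicle the amplitude was 0.43 in the first table and 0.13 in the second, where the adjusted p was 0.482. With the 6 times as separate levels in place of the cosine, Igfbp3 had an adjusted p of 0.0131 in D-alanine and 0.0689 in vehicle, and Igfbp1 and Igfbp4 stayed under 0.05 in both.

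For none of the 10 genes did the rhythm itself differ between treatments in the direct test, and 0% of all genes were called in it. At an unadjusted p under 0.05 it marked 0 of the 10 genes and 2.37% of all genes. The peak in D-alanine minus that in vehicle was 0.157 ± 0.887 h for Igfbp1, 1.88 ± 0.862 h for Igfbp4 and 2.77 ± 1.15 h for Igfbp3, with the SE. The later D-alanine peak had the same sign in each table, at 3.54 h in the first and 1.91 h in the second for Igfbp3, and at 2.54 h in the first and 0.707 h in the second for Igfbp4. In the second table the peaks of Igfbp3 had an SE of 0.767 h in D-alanine and 2.16 h in vehicle. Those of Igfbp4 had 0.674 h in D-alanine and 0.699 h in vehicle. With these SE the signs in the second table are not resolved. The unadjusted p of the difference was 0.0573 for Igfbp3, 0.0941 for Igfbp4 and 0.969 for Igfbp1 in limma, and the adjusted p was 1 for all 3.

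Igfbp5, a binding protein found in extracellular matrix, varied widely between libraries of 1 group. At CT0 it stood at 261, 419, 103 and 61.8 FPKM in D-alanine and at 201, 70.2, 60.9 and 50.4 FPKM in vehicle. At CT8 it stood at 267, 147, 58.9 and 144 FPKM in D-alanine and at 53.5, 51.8, 56.5 and 62.5 FPKM in vehicle. At CT4 the D-alanine mean was the lower, with 53.3, 61.3, 61.1 and 53.0 FPKM in D-alanine, against 142, 102, 39.8 and 50.8 FPKM in vehicle. The groups overlapped at each of these times, and the 5 highest libraries of all 48 came from the first table. Igfbp5 moved with Tns3, a focal adhesion protein gene, and with Mal, which encodes a membrane protein of the renal tubule: Pearson's r was 0.971 and 0.966 over 48 libraries, on log2(FPKM + 1) less the table mean. These libraries share their scaling and their tissue sampling, so r is a description.

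Markers of the medulla moved with Igfbp5. The correlation with the mean of the thin limb list was 0.945 over 48 libraries (0.984 in the first table and 0.854 in the second). It was 0.934 with the inner medulla list, which shares Slc14a2 and Aqp1 with the thin limb list. Other lists also moved with Igfbp5: endothelium (0.88), mesangium, pericyte and fibroblast (0.656), principal cell (0.631), urothelium (0.585) and adipose (0.527). The proximal tubule list went the other way (-0.561), more so in the first table (-0.714) than in the second (-0.161). Negative values were also found for the juxtaglomerular (-0.495) and liver (-0.452) lists, among others. D-alanine CT0 replicate 2, which had the highest Igfbp5, also had the highest thin limb sum, at 516 FPKM in a range of 140.1 to 516 in D-alanine and 149.5 to 416 in vehicle. None of the 4 thin limb markers and none of the 6 inner medulla markers was called between treatments, beside 1.74% of all genes. None was at 0 in all libraries. Changes in D-alanine lay above 0 for 4 of the 4 thin limb markers and 5 of the 6 inner medulla markers. Their median log2 changes were 0.23 (thin limb) and 0.26 (inner medulla), beside 0.06 over all genes. With the mean of the inner medulla markers as a covariate, Igfbp5 had an amplitude of 0.18 over both treatments (limma, adjusted p = 0.00868), against 0.19 ± 0.15 without it (adjusted p = 0.581). The covariate fit describes Igfbp5 relative to these markers, so its amplitude is not that of the Igfbp5 level. The markers themselves had fitted amplitudes from 0.12 (Aqp1) to 0.64 (Slc14a2). Whether their time course gave the call was not tested. In whole tissue, fewer cells of a type and less RNA per cell cannot be told apart.

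**Figure D3:**
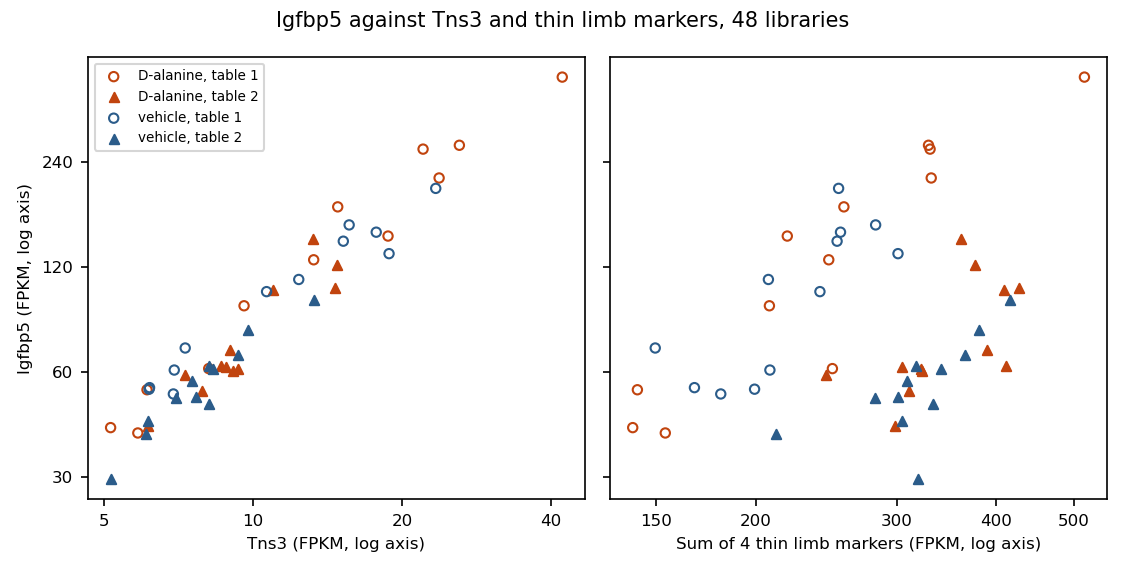
Igfbp5 in FPKM against Tns3 (left) and against the sum of 4 thin limb markers (right), both axes logarithmic; each point is a library in D-alanine (orange) or vehicle (blue), with circles for the first table and triangles for the second. Igfbp5 was higher where Tns3 was higher in both tables (r = 0.971), while at equal marker sums the second table lay lower.

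The receptors varied little through the day. Insr (chr8:3122061-3279617, minus strand) was called rhythmic with both treatments averaged, with a peak at CT6.00 (limma, adjusted p = 0.0243). Its amplitude was 0.10 ± 0.03, a fitted peak-to-trough ratio of 1.14 in FPKM + 1. Its highest mean was 5.85 ± 0.440 FPKM at CT4 in D-alanine and 5.77 ± 0.583 at CT8 in vehicle, and its lowest 4.72 ± 0.556 at CT16 in D-alanine and 4.93 ± 0.328 at CT20 in vehicle (SD, n = 4). The call did not hold in either table alone (adjusted p = 0.297 in the first and 0.076 in the second) or with 2 other scalings (0.0511 as TPM and 0.0521 without mitochondrial genes), and the adjusted p was 0.0602 with the 6 times as separate levels. At CT12 all 4 D-alanine libraries, at 5.51, 5.42, 5.65 and 5.42 FPKM, lay above the vehicle libraries, at 4.88, 4.70, 5.11 and 5.20 FPKM. This was the only pair without overlap among the 60 gene and time pairs. At CT12, 0.911% of all genes had all 4 D-alanine libraries above all 4 vehicle libraries. That share was taken for the time and direction of the Insr pair. It leaves out the other times and the opposite direction, so it is no background for the count over 60 pairs. The Insr pair is therefore not shown to be unusual. The Insr change at CT12 was 0.12 ± 0.09 with an adjusted p of 1. Igf1r (chr7:67952827-68233668, plus strand) ranged from 5.91 to 11.5 FPKM in D-alanine and from 5.45 to 11.01 FPKM in vehicle, with an amplitude of 0.09 ± 0.05 over both treatments (adjusted p = 0.292).

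Of the adaptors, Irs1 (chr1:82233101-82291416, minus strand) was the lowest of the 10 genes. It ranged from 0.901 to 2.39 FPKM in D-alanine and from 0.998 to 1.98 FPKM in vehicle, and was not called rhythmic with both treatments averaged (amplitude 0.07 ± 0.03, adjusted p = 0.173). Irs2 (chr8:10984681-11008458, minus strand), the adaptor that FOXO1 raises in fasted liver, ranged more widely, from 1.15 to 7.30 FPKM in D-alanine and from 1.04 to 6.62 FPKM in vehicle. At CT12 Irs2 stood at 1.15, 3.33, 5.59 and 5.44 FPKM in D-alanine and at 2.25, 2.60, 6.62 and 2.27 FPKM in vehicle, so that both groups spanned most of its range. Its amplitude over both treatments was 0.23 ± 0.10 (adjusted p = 0.203). In the second table alone it was 0.47 (adjusted p = 0.0239), with a peak at CT8.58, and in the first 0.03.

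Neither FOXO gene was called rhythmic. Foxo1 (chr3:52268336-52353221, plus strand) ranged from 2.85 to 4.64 FPKM in D-alanine and from 2.59 to 4.11 FPKM in vehicle, with an amplitude of 0.03 ± 0.02 over both treatments (limma, adjusted p = 0.559). Foxo3 (chr10:42181841-42276755, minus strand) ranged from 2.72 to 8.19 FPKM in D-alanine and from 2.69 to 7.05 FPKM in vehicle, with an amplitude of 0.08 ± 0.05 (adjusted p = 0.412). For each of the 10 genes, groups next to each other in the order of the 12 means had overlapping values. That held for the rhythmic Igfbp1 as well, so such overlap does not show that a rhythm is absent.

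**Figure D4:**
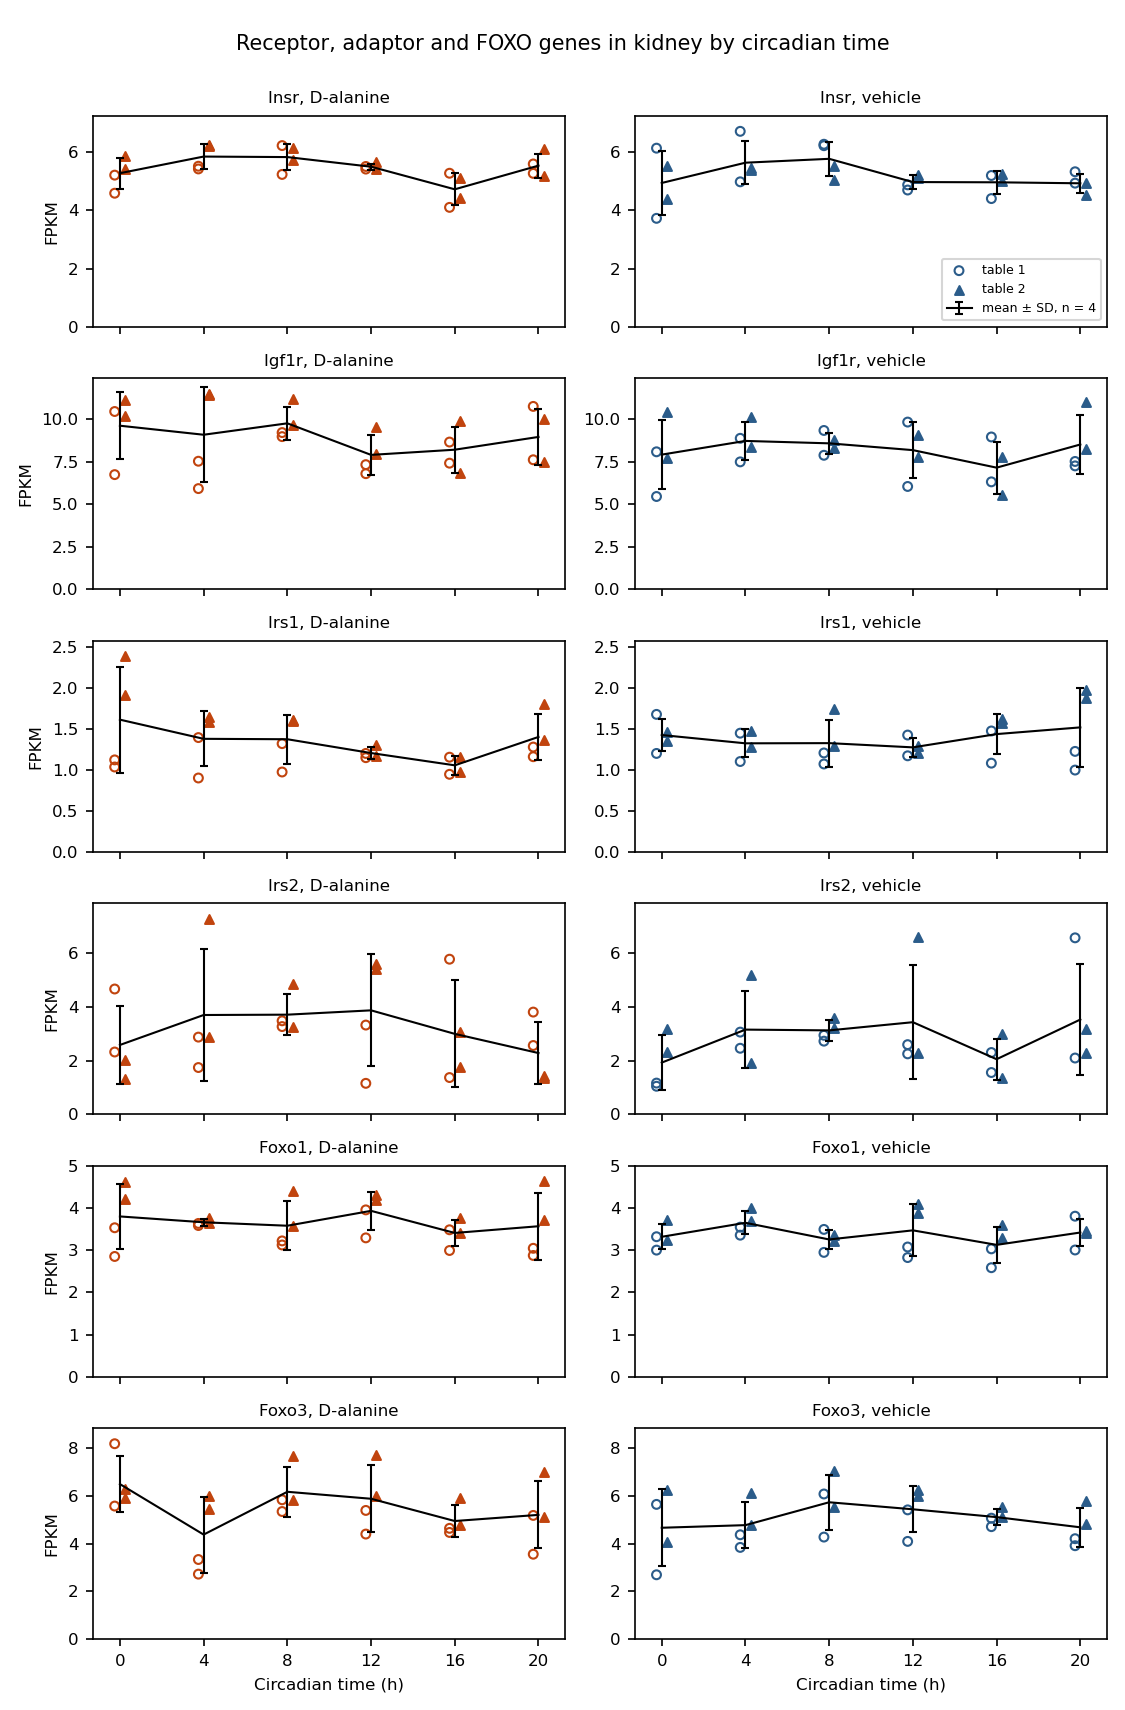
FPKM of Insr, Igf1r, Irs1, Irs2, Foxo1 and Foxo3 against circadian time in hours, in D-alanine (left, orange) and vehicle (right, blue) kidneys. Circles are libraries of the first table and triangles of the second; black lines join the means of 4 libraries with their SD. Group means of Insr and Foxo1 change little with time, and single Irs2 libraries reach 7.30 FPKM in D-alanine and 6.62 FPKM in vehicle.

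D-alanine changed none of the 10 genes past the threshold when averaged over the 6 times, while 1.74% of all genes were called, 1.59% higher and 0.147% lower. At an unadjusted p under 0.05 there were 2 of the 10, Igfbp3 and Foxo1, against 20.5% of all genes. The median log2 change was 0.09 over the 10 genes and 0.06 over all genes tested. Above 0 lay 8 of the 10 genes, beside 11391 of the 14922 genes tested. Igfbp3 averaged 55.8 ± 17.99 FPKM in D-alanine and 47.6 ± 10.9 FPKM in vehicle (SD, n = 24 each), a log2 change of 0.19 ± 0.07 (SE; limma, adjusted p = 0.0995). Foxo1 averaged 3.66 ± 0.526 FPKM in D-alanine and 3.38 ± 0.382 FPKM in vehicle, a change of 0.09 ± 0.03 (adjusted p = 0.15). In the second table Igfbp3 stood at 67.6 ± 15.1 FPKM in D-alanine and 53.8 ± 7.20 in vehicle, and in the first at 43.9 ± 11.96 in D-alanine and 41.4 ± 10.7 in vehicle (SD, n = 12); the changes were 0.31 in the second table and 0.08 in the first.

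Igfbp5 averaged 118 ± 92.6 FPKM in D-alanine and 82.1 ± 44.7 FPKM in vehicle, a log2 change of 0.38 ± 0.19 (adjusted p = 0.256). With the mean of the inner medulla markers as a covariate this change was 0.19 (adjusted p = 0.0576), and without D-alanine CT0 replicate 2 it was 0.32. Igfbp1 averaged 3.13 ± 3.76 FPKM in D-alanine and 3.50 ± 3.11 FPKM in vehicle, a change of -0.20 ± 0.13 (adjusted p = 0.39). The remaining changes were 0.11 ± 0.07 for Igf1r, 0.09 ± 0.06 for Foxo3, 0.09 ± 0.15 for Irs2, 0.06 ± 0.04 for Insr, 0.05 ± 0.08 for Igfbp4 and -0.03 ± 0.05 for Irs1, and none of these was called. The signs for Insr and Igfbp4 depended on the scaling. The limma tests of treatment by table and of treatment by time called 0% of all genes and none of the 10. At an unadjusted p under 0.05 they marked 0 of the 10 genes each, and 3.84% of all genes by table and 3.53% by time.

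**Figure D5:**
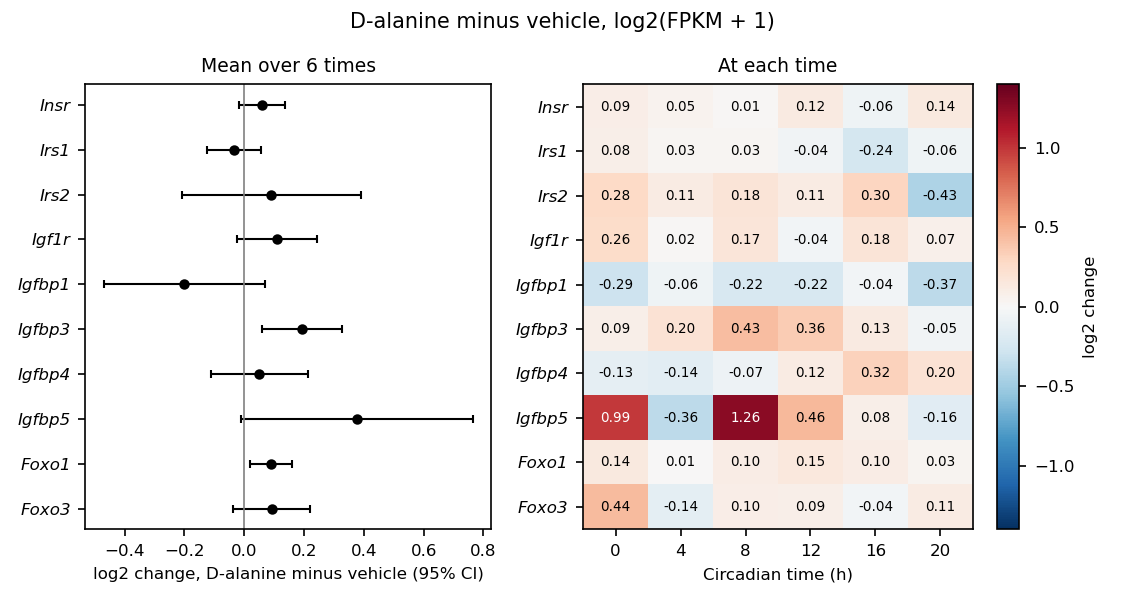
Left, log2 change in D-alanine minus vehicle averaged over 6 times with its 95% confidence interval, on the log2(FPKM + 1) scale. Right, the same change at each circadian time, red where D-alanine was higher and blue where it was lower. The intervals of Igfbp3 and Foxo1 lie above 0 without adjustment, and the largest single changes are those of Igfbp5 at CT8 (1.26) and CT0 (0.99).

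At single times none of the 60 gene and time pairs passed, with 1.14% of all genes called at CT0 and 0% at each of the other 5 times. At an unadjusted p under 0.05 there were 6 of the 60, 2 at CT0, 2 at CT8, 1 at CT12 and 1 at CT16, where 22% (CT0), 2.55% (CT4), 14.8% (CT8), 2.27% (CT12), 4.74% (CT16) and 2.57% (CT20) of all genes stood. Foxo3 at CT0 had the smallest p, at 5.58, 8.19, 6.29 and 5.92 FPKM in D-alanine and 5.64, 2.69, 6.26 and 4.06 FPKM in vehicle. These groups overlapped, and the log2 change was 0.44 ± 0.16 (limma, adjusted p = 0.105). It was 0.58 (adjusted p = 0.0291) without vehicle CT0 replicate 1 and 0.29 without replicate 2 of either treatment at CT0. D-alanine CT0 replicate 2, the highest Foxo3 library, also had the highest inner medulla sum. Foxo3 had r = 0.531 with the inner medulla list (0.675 in the first table, 0.149 in the second) and 0.552 with the thin limb list. The podocyte (-0.505) and juxtaglomerular (-0.538) lists went the other way. The part of tissue sampling in the Foxo3 change was not tested. Igfbp5 differed by 0.99 ± 0.47 at CT0 (adjusted p = 0.207; 0.66 without D-alanine CT0 replicate 2) and by 1.26 ± 0.47 at CT8 (adjusted p = 0.278), and with the inner medulla covariate by 0.35 at CT0 and 0.51 at CT8. Igfbp3 at CT8 held 39.3, 42.8, 97.9 and 75.7 FPKM in D-alanine and 36.0, 37.5, 57.0 and 47.7 FPKM in vehicle, a change of 0.43 ± 0.16 (adjusted p = 0.278) that was 0.15 in the first table, 0.71 in the second and 0.28 without D-alanine CT8 replicate 3.

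Outside these 10 genes, 84 genes in 7 lists of the pathway were examined (Rictor stands in 2 of them), of which 77 were tested. Ins1, an insulin gene of the pancreatic islet, was listed at 0 in all libraries, and Ins2, Pappa, Pappa2, Sh2b2, Foxo6 and Fbxo32 stayed below the filter. In D-alanine 4 of the 77 were higher and 0 lower, beside 1.59% higher and 0.147% lower over all genes: the kinase Akt2 (0.13 ± 0.03; limma, adjusted p = 0.0134), Mlst8, a subunit of both mTOR complexes (0.20 ± 0.04, adjusted p = 0.0139), Ptpn1, a phosphatase that switches off the insulin receptor (0.17 ± 0.05, adjusted p = 0.0448), and the transcription factor Foxk2 (0.20 ± 0.05, adjusted p = 0.0446). The calls of Ptpn1 and Foxk2 were lost in 28 (Ptpn1) and 29 (Foxk2) of the 48 fits that left out 1 library, and those of Akt2 and Mlst8 in 0. Akt2 averaged 11.1 ± 1.51 FPKM in D-alanine and 10.04 ± 1.28 FPKM in vehicle, and Mlst8 4.94 ± 0.784 FPKM in D-alanine and 4.17 ± 0.554 FPKM in vehicle (SD, n = 24 each). The median change over the 77 was 0.08, beside 0.06 over all genes. Under quantile normalization and under median centring none of the 77 was called, and 22 were with TPM. Of the ligand genes, Igf1 averaged 1.32 ± 0.629 FPKM in D-alanine and 1.33 ± 0.510 FPKM in vehicle. The highest level in the same list was that of Igfbp7, at 729 ± 146 FPKM in D-alanine and 695 ± 94.9 FPKM in vehicle. Neither Igf1 nor Igfbp7 was called between treatments.

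Over both treatments 20 of the 77 genes were called rhythmic (26.0%, beside 25.9% of all genes). The list of PI3K and AKT genes had 6 of 14, the FOXO targets 7 of 19, and the receptor-proximal adaptors 0 of 8. Srebf1, the transcription factor through which insulin raises fat synthesis in liver, had an amplitude of 0.36 ± 0.05 with a peak at CT18.2. Pck1, the gluconeogenic enzyme and a FOXO target, had an amplitude of 0.47 ± 0.07 and peaked at CT14.2, several hours after Igfbp1. Its amplitude was 0.63 in D-alanine (adjusted p = 5.09e-05) and 0.32 in vehicle (adjusted p = 0.0628). The direct test of a difference in rhythm called 0% of all genes, so the Pck1 amplitudes were not shown to differ between treatments. Pik3ca, the catalytic PI3 kinase subunit, peaked at CT3.38 with an amplitude of 0.17 ± 0.03, and Inpp5k, a phosphatase that opposes it, at CT7.51 with 0.17 ± 0.03. Htra1, a protease that cleaves IGF binding proteins, peaked at CT0.15 with an amplitude of 0.27 ± 0.06 (adjusted p = 0.00322).

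Across the 48 libraries, the gene closest to each of the 10 was found by Pearson's r. Igfbp1 was closest to Slc6a19, the neutral amino acid transporter of the proximal tubule (r = 0.89, amplitude 0.74, peak CT6.78), and to Nat8f4 (r = 0.844). Slc6a19 averaged 35.5 ± 16.2 FPKM in D-alanine and 36.3 ± 20.7 FPKM in vehicle (SD, n = 24 each). Igfbp4 was closest to Inmt, a methyltransferase (r = 0.912), and to Car14, a membrane carbonic anhydrase (r = 0.895), which peaked at CT11.2 and CT10.1. Igfbp3 was closest to Pxdn, a peroxidase of the matrix (r = 0.779). For Igf1r the closest gene was Cmtm4 (r = 0.866), for Foxo3 the sodium pump subunit Atp1b1 (0.802), for Insr Dolk (0.759), for Irs2 Jade2 (0.73), for Foxo1 Galc (0.611) and for Irs1 Ythdc2 (0.576). Among the 10 genes themselves, r exceeded 0.5 for Foxo3 with Igfbp5 (0.625), Insr with Igfbp1 (0.607), Foxo1 with Igfbp3 (0.55), Igf1r with Foxo3 (0.557) and Insr with Igf1r (0.509). Igfbp4 correlated with the proximal tubule markers (r = 0.718; 0.845 in the first table and 0.437 in the second) and negatively with the markers of mesangium, pericytes and fibroblasts (r = -0.748; -0.801 in the first and -0.638 in the second). All these values are on log2(FPKM + 1) less the table mean over 48 libraries that share their scaling, and their part in the rhythms was not tested.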

How the data were processed

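Messenger RNA libraries from 48 mouse kidneys were made from column-purified RNA with a SMARTER kit, per the labels' protocols. The authors deposited FPKM values per gene in 2 tables, with 1 column per library; per the submitters' processing notes they used GRCm38 (mm10), and for the aligner, counter, strand setting and filters nothing is given in the sources used here. Groups came from the labels, and replicate numbers follow sample order and pair nothing. Depth was recovered from the FPKM steps of single fragments in genes with 1 transcript, with GENCODE exon lengths; 97.1% to 97.7% of values under 20 fragments were whole within 0.05.

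Genes with at least 1 FPKM in at least 4 libraries were fitted as log2(FPKM + 1), a pseudocount of 1 that understates changes of low genes, with limma 3.58.1 (R 4.3.3; trend, empirical Bayes) on the 12 groups with table as an additive term. Rhythms were a 24 h cosine and sine per treatment. Tests are two-sided, adjusted by Benjamini-Hochberg over all 14922 genes. Promoters were searched with Python 3.11.15. The fit was tested on simulated data. The alternatives were another pseudocount (0.1), no filter, other scalings, other table terms, each table alone, robust moderation, an inner medulla covariate and leaving out each library. All 10 genes are named; of each of the 7 pathway lists, up to 4 genes with the smallest p for treatment and up to 4 for rhythm could be named, and for each of the 10 the 2 genes with the highest r. Igf1, Igfbp2, Igfbp6 and Igfbp7 were named for their role or level after their values were seen. The 18 marker lists had no call between treatments, beside 1.74% of all genes. The genes and lists were chosen with earlier results of these data known.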

Additional observations from a re-analysis of the deposited data

Results flagged for a closer look

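In 5 of the 120 sets of 4 libraries (10 genes in 12 groups), 1 library stood far from the other 3, with a gap to its nearest neighbour above 0.829 of the whole range; chance alone marks about 1 in 20 sets. Irs2 had 1 high library in D-alanine CT8, at 4.86 FPKM against 3.24 to 3.48 in the others, and 1 in vehicle CT12, at 6.62 FPKM against 2.25 to 2.60. Igfbp1 had 1 low library in D-alanine CT0, at 0.374 FPKM against 0.790 to 0.840. Igfbp5 had 1 high library in D-alanine CT20, at 215.5 FPKM against 40.1 to 62.2, and 1 in vehicle CT0, at 201 FPKM against 50.4 to 70.2.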

How the results depend on the processing

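No paired analysis was possible because the labels carry no replicate numbers. In the treatment mean, 2 of the 10 genes were called with TPM (Igfbp3 and Foxo1), 1 with the inner medulla covariate (Igfbp3) and 0 under the other alternatives and without any 1 library. At single times, 2 gene and time pairs were called with TPM (Foxo1 and Foxo3 at CT0), and 0 to 1 when 1 library was left out. Scaling moved the median change of all genes, from 0.06 as deposited to 0.11 with TPM and -0.01 with median centring, and with it the calls over all genes: 237 higher and 22 lower as deposited, 2638 and 30 with TPM, 3 and 11 with quantile normalization, 3 and 20 with median centring, 37 and 15 without mitochondrial genes. There were 145 calls with no filter, 17 with no table term, 0 and 14 in the single tables, 404 with the covariate and 93 to 631 without 1 library. The sign turned for Insr (-0.0146 with quantile normalization, -0.00989 with median centring), Igfbp4 (-0.0197 with median centring, -0.0457 in the first table), Irs1 (0.00767 in the second table), Irs2 (-0.00332 in the second table) and Stc2 (-0.000956 with median centring).

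For rhythms in D-alanine, 1 gene (Igfbp4) was called in the first table alone and 5 (also Irs1 and Irs2) in the second. In vehicle, 2 genes (Igfbp1 and Igfbp3) were called in the first table alone and 1 (Igfbp4) in the second. With no table term Igfbp3 was not called in either treatment, and with the covariate Igfbp5 and Foxo3 were also called over both treatments. The covariate fit describes these genes relative to the inner medulla markers. Leaving out 1 library kept 3, 3 and 4 genes called in D-alanine, vehicle and both. Over all genes, 233 were called in D-alanine in the first table, 725 in the second, 494 with no table term and 2253 with the covariate; in vehicle 266, 663 and 599 for the first 3; in both treatments 1754 in the first table and 1994 with no table term. In the pathway lists, treatment calls numbered 2 with no filter, 22 with TPM, 0 with quantile normalization, median centring, no table term or the first table alone, 1 without mitochondrial genes and in the second table, 7 with a table by time term, and 2 to 10 without 1 library; rhythm calls numbered 11 with no table term and 6 in the first table. The cause of these shifts was not tested. Each single table has 2 libraries per group. The depth gives Igfbp1 as few as 3 fragments, so differences at its trough are not resolved.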
